A study of Mus musculus with 26 samples.

Results

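10 microRNAs known from microglia, other blood-lineage cells and inflammatory signalling were followed in the CA1 region of the mouse hippocampus. They were chosen by name, as the rows of the deposited count table for mmu-miR-142a-3p, mmu-miR-142a-5p, mmu-miR-146a-5p, mmu-miR-146b-5p, mmu-miR-150-5p, mmu-miR-150-3p, mmu-miR-155-5p, mmu-miR-342-3p, mmu-miR-342-5p and mmu-miR-21a-5p. These are 10 of the 1915 entries of the table, and all 10 were among the 605 miRNAs that passed a filter on low counts. The 26 small RNA libraries fell into 3 groups. The first group was 10 libraries from CamkdeltaC transgenic mice that drank Vorinostat, a histone deacetylase inhibitor. The second was 7 libraries from CamkdeltaC transgenic mice given vehicle. The third was 9 libraries from wild type littermates, also on vehicle. Drinking water carried the drug or the vehicle in all groups for 4 weeks from the age of 2 months until 3 months, and both sexes were used. The line of this name is known in the field for a heart muscle transgene that encodes a calcium/calmodulin-dependent kinase. The labels name no promoter and do not tie a library to a single animal, so p-values reflect how far libraries of a group differ, which may be technical.

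A miRNA is cut from a hairpin precursor, which can give a mature strand from its 5p arm and one from its 3p arm. The mature strand guides Argonaute to messenger RNAs, mostly through its seed, the bases next to its 5′ end. miR-142, miR-150 and miR-342 are known as miRNAs of blood-lineage cells, to which microglia, the resident macrophages of the brain, belong. miR-146a, miR-155 and miR-21 are known to be induced by inflammatory stimuli in macrophages. RNA of whole CA1 holds neurons and all glia, so fewer cells of a type and less RNA per cell cannot be told apart in these values.

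The mature sequences show which of the 10 could act through the same seed, and which could be confused when reads are counted. RefSeq (GRCm38.p6) gave a sequence for 9 of the 10, and miR-150-5p is named only. Capitals mark the seed, bases 2 to 8 counted from the 5′ end.
miR-142a-5p: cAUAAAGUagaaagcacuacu
miR-142a-3p: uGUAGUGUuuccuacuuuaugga
miR-342-5p: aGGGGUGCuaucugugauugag
miR-342-3p: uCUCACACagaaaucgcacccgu
miR-150-3p: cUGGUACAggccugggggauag
miR-146a-5p: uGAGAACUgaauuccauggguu
miR-146b-5p: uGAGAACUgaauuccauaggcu
miR-155-5p: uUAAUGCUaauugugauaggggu
miR-21a-5p: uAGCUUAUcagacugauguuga
The 9 sequences held 8 seeds, because miR-146a-5p and miR-146b-5p share GAGAACU. Their 22 bases differ by 2 substitutions near the 3′ end, G18A and U21C, with the base of miR-146a-5p given first. The labels leave out how reads were counted, so reads could be split between this pair, and the level of either is uncertain to that degree. The 2 arms of miR-142a have different seeds, and so do the 2 arms of miR-342. Beyond this pair, the counted miRNA with a shared seed was miR-21c, which has the seed of miR-21a-5p and held 76 reads in all 26 libraries together.

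The hairpins come from different loci, given here on GRCm38. Mir142 lies at chromosome 11, 87756864 to 87756927, plus strand, in an intron of the long non-coding Mir142hg. Mir146, the source of miR-146a, is at chromosome 11, 43374397 to 43374461, minus strand, and Mir21a is at chromosome 11, 86584067 to 86584158, minus strand, where it overlaps an exon and a UTR of Vmp1. Mir155 lies at chromosome 16, 84714140 to 84714204, in an exon of Mir155hg. Mir342 is at chromosome 12, 108658620 to 108658718, in an intron of Evl, and Mir146b is at chromosome 19, 46342762 to 46342870, in an intron of Mfsd13a. The 3p arm of Mir150 is at chromosome 7, 45121798 to 45121819.

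Totals ran between 585188 and 24767468 counts per library, with means of 11068804 ± 3488527 in the Vorinostat group, 13227701 ± 7564625 in the transgenic vehicle group and 10832561 ± 4676928 in wild type (SD, n = 10, 7 and 9). The headers name 2 sequencing lanes: lane L001 held 4 Vorinostat, 3 transgenic vehicle and 6 wild type libraries, and lane L002 held 6, 4 and 3. A pair of libraries stood apart, Vorinostat replicate 8 with 3892718 counts and wild type replicate 1 with 585188. In wild type replicate 1, miR-142a-3p and miR-155-5p had 0 reads, which allows up to 6.24 CPM (reads scaled to one common library size, by the library total and its trimmed-mean factor) for each. Their part in a result is given where a value moves without them. The defining blood miRNAs miR-223-3p and miR-223-5p, of monocytes and neutrophils, summed to between 0 and 2.13 CPM in Vorinostat, between 0.294 and 1.28 CPM in transgenic vehicle and between 0 and 1.46 CPM in wild type libraries. Red cell miRNAs were present in every library: the sum of miR-451a, both arms of miR-144 and miR-486a-5p (4 entries, with miR-486b-5p left out because its counts were identical) ran from 585 to 1235 CPM in Vorinostat, from 564 to 882 CPM in transgenic vehicle and from 518 to 2033 CPM in wild type. The wild type high was replicate 1, with 701 CPM in the next library, and the part of blood RNA in the levels of the blood-lineage members was not tested. Neuronal markers (4 of 4 measured) summed to medians of 396544 CPM in Vorinostat, 347704 CPM in transgenic vehicle and 350177 CPM in wild type; all 4 were detected.

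miR-21a-5p averaged 1540.0 CPM over 26 libraries and miR-146b-5p 1429 CPM, and this top pair did not separate, with miR-21a-5p the higher in 16 of 26 libraries. miR-146a-5p followed at 329 CPM, below miR-146b-5p in 26 of 26 libraries. miR-342-3p (108 CPM) and miR-150-5p (76.1 CPM) came next, and miR-342-3p was the higher in 25 of 26. miR-342-5p averaged 47.7 CPM and was below miR-150-5p in 21 libraries, and miR-142a-5p, at 21.6 CPM, was below miR-342-5p in 25. The least abundant were miR-142a-3p at 3.54 CPM, miR-150-3p at 2.09 CPM and miR-155-5p at 0.856 CPM, which had 280 reads in all libraries together. Together the 10 took between 0.124% and 0.447% of the counts of a library.

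**Figure D1:**
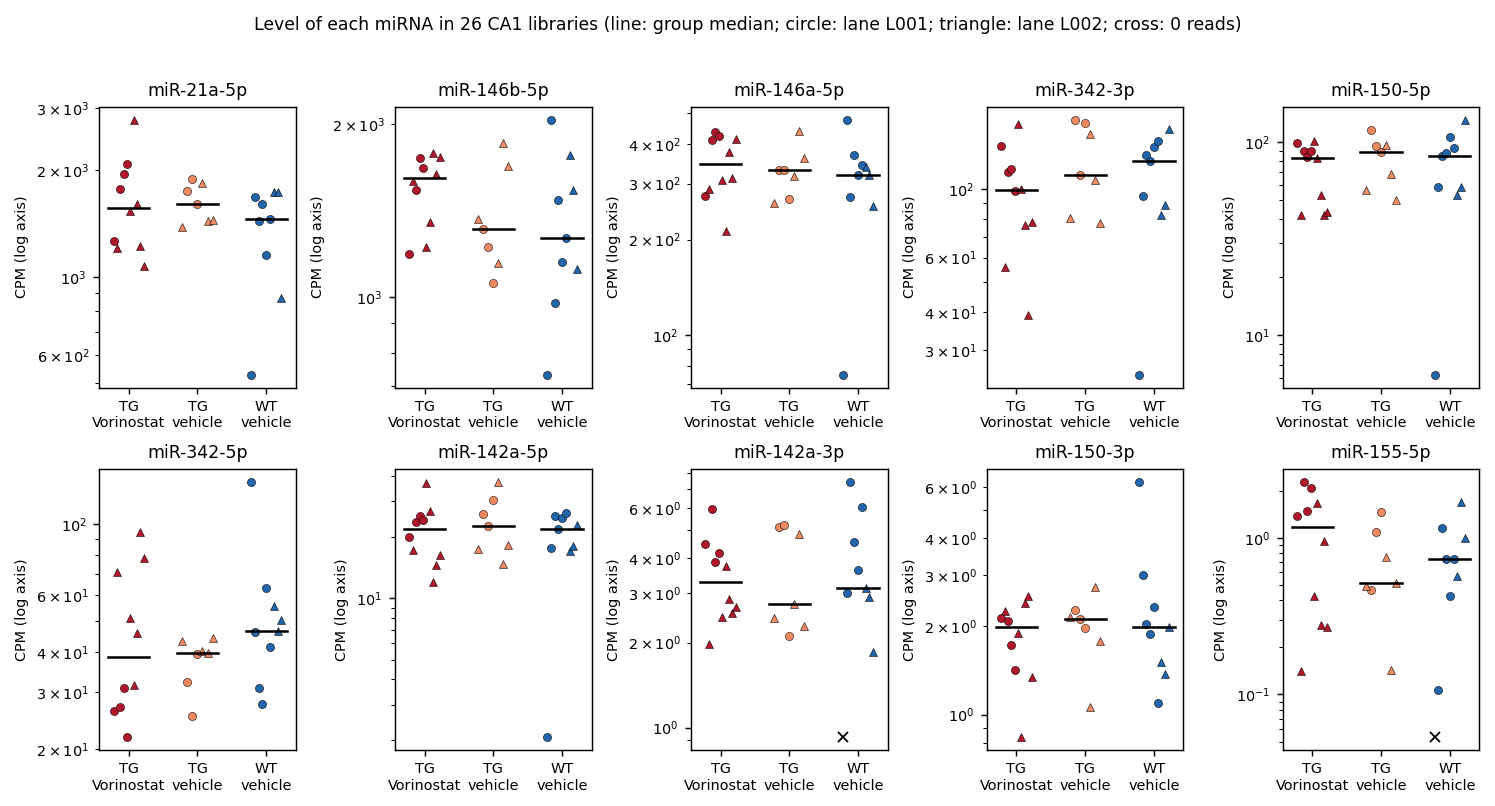
Level of each of the 10 miRNAs in CPM on a log axis, 1 point per library, for transgenic (TG) Vorinostat (10), TG vehicle (7) and wild type (WT) vehicle (9). Lines are group medians and crosses are libraries with 0 reads; the 3 groups overlap in every panel, and the lowest wild type point in 8 panels, or the highest in 2, is replicate 1.

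The miRNAs known as responders to inflammatory signals were tested first. miR-146a-5p, which is known to be induced by NF-kB and to repress the adaptors IRAK1 and TRAF6, had a lowest, median and highest level of 212, 345 and 438 CPM with Vorinostat, 261, 332 and 439 CPM in transgenic vehicle and 74.9, 320 and 478 CPM in wild type. Groups overlapped, and the wild type low was replicate 1, with 255 CPM in the next library. miR-146b-5p, its seed partner, had 1189, 1612 and 1775 CPM with Vorinostat, 1059, 1314 and 1855 CPM in transgenic vehicle and 732, 1268 and 2034 CPM in wild type. Its differences were small: 0.17 on the log2 scale for Vorinostat against vehicle (SE 0.17, edgeR adjusted p = 0.836) and 0.042 for transgenic against wild type (SE 0.17, adjusted p = 0.986). The number of miR-146b-5p reads per miR-146a-5p read had medians of 4.28 with Vorinostat, 3.95 in transgenic vehicle and 4.25 in wild type, and ranged from 3.58 to 9.78, the highest in wild type replicate 1.

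miR-21a-5p, known to repress Pdcd4 and to be expressed widely outside the immune system too, had 1075, 1567 and 2782 CPM with Vorinostat, 1380, 1601 and 1885 CPM in transgenic vehicle and 528, 1459 and 1741 CPM in wild type. All 7 transgenic vehicle libraries were above the wild type mean of 1357 ± 425 CPM (SD, n = 9), but that mean rests on replicate 1 at 528 CPM: without it the mean was 1461 ± 310 CPM (SD, n = 8) and 4 of 7 were above. The difference was 0.25 (SE 0.21, edgeR adjusted p = 0.980), with a 95% interval from -0.18 to 0.69, and 0.13 without wild type replicate 1.

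miR-155-5p, processed from the transcript Mir155hg of activated macrophages, was the rarest member, so its counts were small, with medians of 9.5 reads with Vorinostat, 5 in transgenic vehicle and 10 in wild type. It had 0.142, 1.17 and 2.28 CPM with Vorinostat, 0.143, 0.510 and 1.45 CPM in transgenic vehicle and 0, 0.731 and 1.69 CPM in wild type. Of the 10 miRNAs it gave the highest value for Vorinostat against vehicle, 0.70 (SE 0.50, adjusted p = 0.836), and its 95% interval from -0.33 to 1.73 spans folds between 0.794 and 3.32. This value was 0.44 without Vorinostat replicate 2, likewise 0.44 without transgenic vehicle replicate 8, and 0.93 without transgenic vehicle replicate 5. Its biological coefficient of variation between libraries, 0.627 in edgeR, was the largest of the 10 beside a median of 0.380 over all tested miRNAs.

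The blood-lineage miRNAs came next. miR-142a-5p, from a hairpin known as a marker of hematopoietic cells, had 12.0, 21.8 and 37.1 CPM with Vorinostat, 14.7, 22.7 and 37.5 CPM in transgenic vehicle and 2.08, 21.9 and 26.2 CPM in wild type. The groups overlapped and their medians were close. miR-142a-3p had 1.98, 3.29 and 5.97 CPM with Vorinostat, 2.11, 2.73 and 5.22 CPM in transgenic vehicle and 0, 3.12 and 7.44 CPM in wild type.

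miR-150-5p, known from mature lymphocytes and as a repressor of Myb, had 41.9, 83.2 and 101 CPM with Vorinostat, 50.1, 88.9 and 115 CPM in transgenic vehicle and 6.24, 84.3 and 131 CPM in wild type. Its difference was 0.092 for transgenic against wild type (SE 0.32) and -0.081 without the pair of libraries that stood apart. miR-150-3p was near 2 CPM in each group, with medians of 2.00 with Vorinostat, 2.13 in transgenic vehicle and 1.98 in wild type.

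miR-342-3p, made from an intron of Evl, had 39.1, 99.3 and 163 CPM with Vorinostat, 77.8, 111 and 169 CPM in transgenic vehicle and 25, 124 and 157 CPM in wild type. Vorinostat libraries were below the transgenic vehicle mean of 123 ± 38.2 CPM (SD, n = 7) in 8 of 10, and the difference was -0.33 (SE 0.28, adjusted p = 0.836). miR-342-5p had 21.8, 38.7 and 94.4 CPM with Vorinostat, 25.4, 39.7 and 44.1 CPM in transgenic vehicle and 27.5, 46.4 and 135 CPM in wild type. All 7 transgenic vehicle libraries lay below the wild type mean of 55.2 ± 32.0 CPM (SD, n = 9). Replicate 1, at 135 CPM, raised that mean, but without it 0 of the 7 were above the wild type mean. The difference was -0.51 (SE 0.31, edgeR adjusted p = 0.980), and -0.28 without both libraries that stood apart.

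Across the 3 comparisons, 0 of the 10 miRNAs passed an adjusted p of 0.05 in edgeR, nor was any unadjusted p below 0.05. The share of all 605 tested miRNAs called was 0% for transgenic against wild type, 0% for Vorinostat against vehicle and 0% for Vorinostat-treated transgenic against wild type. At an unadjusted p under 0.05 there were 13, 21 and 19 miRNAs in these comparisons with edgeR, 18, 26 and 29 with DESeq2 and 7, 16 and 23 with limma voom, and all 3 tools made 0 calls after adjustment. The median difference over the 10 was 0.067, -0.0066 and 0.014, beside 0.025, -0.0098 and 0.014 over all tested miRNAs. The largest SE of the 10 was 0.52, for miR-155-5p, and the smallest 0.16, for miR-146b-5p. The SE did not follow abundance throughout. For transgenic against wild type it was 0.26 for miR-150-3p, at 2.09 CPM, and 0.32 for miR-150-5p, at 76.1 CPM.

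**Figure D2:**
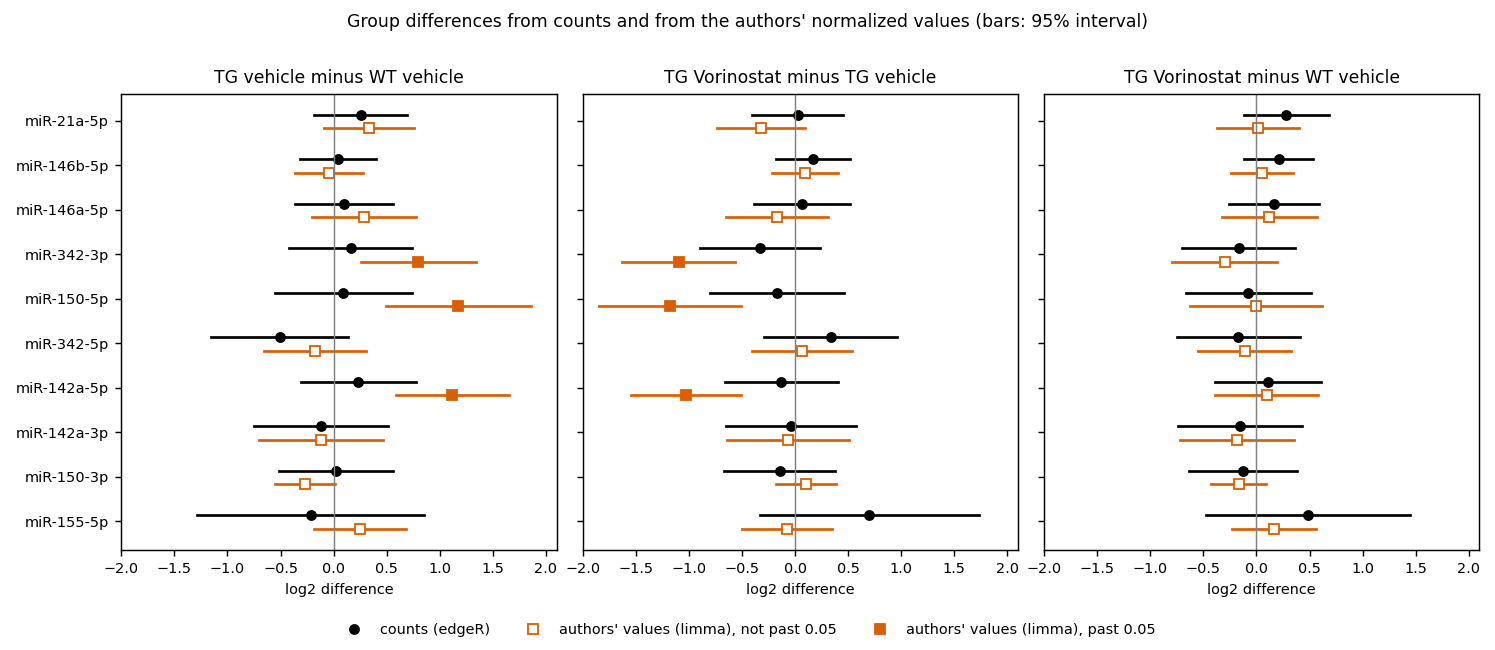
Log2 difference between groups for each miRNA in 3 comparisons, with black circles from edgeR on the counts and orange squares from limma on the authors' normalized values; bars are 95% intervals and filled squares have an adjusted p under 0.05. All 30 black intervals include 0, whereas 3 orange squares are filled in each of the left and middle panels: miR-142a-5p, miR-150-5p and miR-342-3p.

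Same-numbered Vorinostat and transgenic vehicle libraries deviated together in 7 of 7 pairs, of which 6 shared a lane. Differently numbered libraries were not compared and the labels do not explain the numbers, so a tie by number was not tested. Within these 7 pairs, miR-150-5p was lower with Vorinostat in 6, miR-342-3p in 5 and miR-150-3p in 6, and miR-146b-5p was higher in 6. miR-146a-5p and miR-342-5p were higher in 5, miR-142a-3p and miR-155-5p in 4, and miR-142a-5p and miR-21a-5p in 3. How many of all miRNAs were as one-sided was not counted. A fit with the pair as a block gave -0.43 for miR-342-3p (SE 0.18, unadjusted p = 0.0344, edgeR adjusted p = 0.154) and -0.28 for miR-150-5p (SE 0.14, adjusted p = 0.215). At an unadjusted p under 0.05 there were 147 of all 567 miRNAs in this fit, and 1 of 9 members. The log2 CPM difference of miR-342-3p was -1.44 in pair 8 and ran from -0.59 to 0.059 in the other pairs. Of the 10, miR-155-5p did not pass the filter in these 14 libraries, and none of the 9 tested passed. This fit called 5 of 567 miRNAs (0.882%), none of them among the 10, and 0 when pair 8, which holds Vorinostat replicate 8, was left out.

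The authors' deposited table of normalized log2 values gave another picture for 3 of the 10. It holds 674 miRNAs, and no label or header says how its values were made. On this scale miR-142a-5p averaged 5.45 ± 0.31 with Vorinostat, 6.48 ± 0.32 in transgenic vehicle and 5.36 ± 0.80 in wild type (SD, n = 10, 7 and 9). Transgenic vehicle was higher than wild type by 1.12 (SE 0.26, limma adjusted p = 0.00286), above the wild type mean in 7 of 7 libraries, and Vorinostat was lower than vehicle by a difference of -1.02 (SE 0.25, adjusted p = 0.00296), below the vehicle mean in 10 of 10. The same 2 directions held for miR-150-5p, with 1.17 (SE 0.33, adjusted p = 0.00670) and -1.18 (SE 0.33, adjusted p = 0.00517), and for miR-342-3p, with 0.80 (SE 0.26, adjusted p = 0.0146) and -1.10 (SE 0.26, adjusted p = 0.00262). From the counts the same 3 miRNAs gave 0.092 to 0.23 for transgenic against wild type and -0.13 to -0.33 for Vorinostat against vehicle, with no call. Without wild type replicate 1 the counts gave 0.10 for miR-142a-5p, -0.083 for miR-150-5p and 0.0070 for miR-342-3p for transgenic against wild type. Without both libraries that stood apart they gave -0.089, -0.11 and -0.24 for Vorinostat against vehicle.

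On the authors' values, 3 of 10 members passed in each of these 2 comparisons, beside 54.3% of all 674 miRNAs for transgenic against wild type and 53.4% for Vorinostat against vehicle, so the members' share is below the background. For Vorinostat-treated transgenic against wild type 0.89% passed, and 0 of the 10. The 2 comparisons share the transgenic vehicle libraries. Without the 2 libraries that stood apart, the 3 miRNAs kept their calls, at 0.57 to 0.87 and -0.97 to -1.10. Within lane L001 the differences were 1.08 to 1.47 and -1.05 to -1.21 (limma adjusted p from 0.136 to 0.310). Within lane L002 they were 0.47 to 0.98 and -1.0 to -1.14 (limma adjusted p from 0.00226 to 0.195). The share of all 674 miRNAs that passed within a lane was not counted, so these values cannot be called particular to the 3.

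The gap between the authors' value and log2 CPM differed by group for these 3 miRNAs. For miR-142a-5p the mean gap was 1.08 with Vorinostat, 1.97 in transgenic vehicle and 1.24 in wild type, for miR-150-5p it was 0.22, 1.20 and 0.37, and for miR-342-3p it was 2.04, 2.77 and 2.22. The authors' table also orders members differently: miR-146a-5p averaged 12.83 there with Vorinostat against 12.47 for miR-146b-5p, while by counts it was below miR-146b-5p in every library. In the authors' table miR-142a-3p and miR-142a-5p averaged 6.06 and 5.45 with Vorinostat, 6.13 and 6.48 in transgenic vehicle and 6.24 and 5.36 in wild type, so the 3p arm was the higher in 2 of 3 groups. By counts the 5p arm was the higher in 26 of 26 libraries. What makes the 2 tables differ was not tested.

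**Figure D3:**
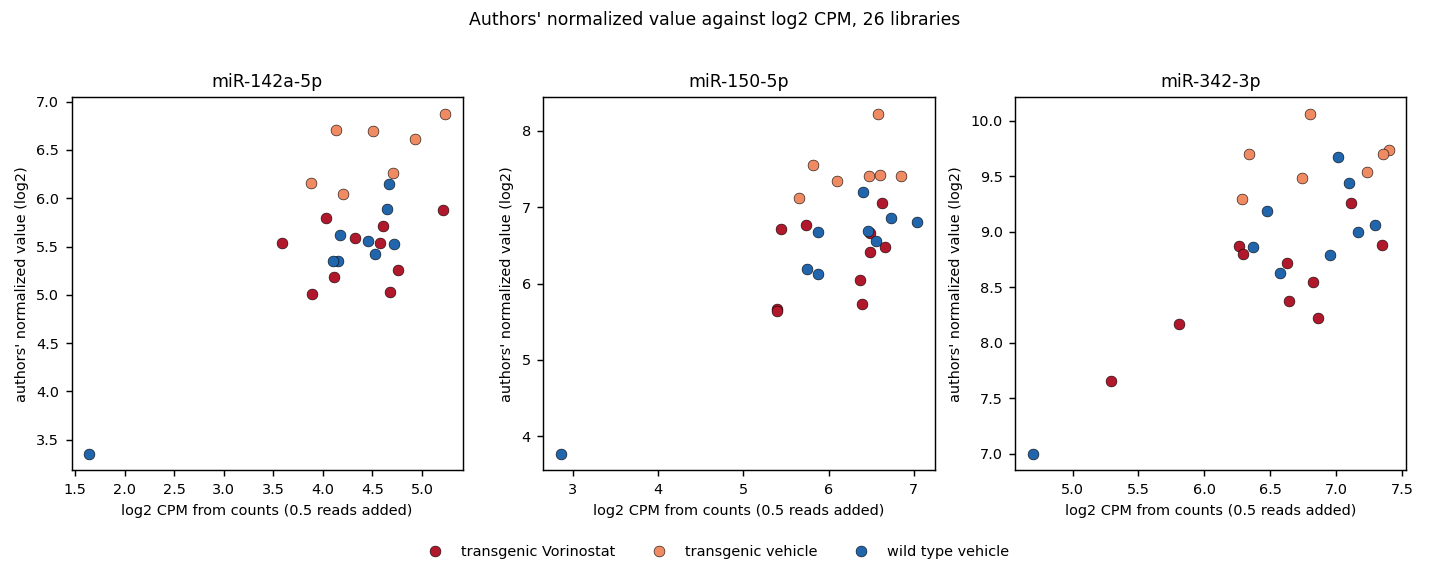
The authors' normalized log2 value (vertical) against log2 CPM from the counts (horizontal) for the 3 miRNAs called on the authors' values, 1 point per library, coloured by group. At like log2 CPM the 7 transgenic vehicle points lie above most Vorinostat and wild type points. The mean gap between the authors' value and log2 CPM was 1.97, 1.20 and 2.77 in transgenic vehicle in the 3 panels. It was 1.08, 0.22 and 2.04 with Vorinostat and 1.24, 0.37 and 2.22 in wild type.

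The 3 hairpins with both arms among the 10 favoured different arms. The 3p arm took a median of 14.4% of miR-142a reads, 2.18% of miR-150 reads and 75.8% of miR-342 reads, so miR-342 was the one mostly in its 3p form. The log2 ratio of 3p to 5p reads of miR-342 averaged 1.10 ± 1.25 with Vorinostat, 1.66 ± 0.62 in transgenic vehicle and 0.99 ± 1.38 in wild type (SD, n = 10, 7 and 9). In wild type replicate 1 and in 3 Vorinostat libraries the 5p arm matched or exceeded the 3p arm. By lane, this ratio averaged 0.82 ± 0.92 in L002 and 1.61 ± 1.27 in L001 (SD, n = 13 each). None of the 9 comparisons of arm ratios passed an exact permutation test (two-sided, each Benjamini-Hochberg adjusted p = 0.864). The smallest unadjusted p was 0.280, for miR-342 in transgenic against wild type, a difference of 0.67 that was 0.24 without the libraries that stood apart.

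**Figure D4:**
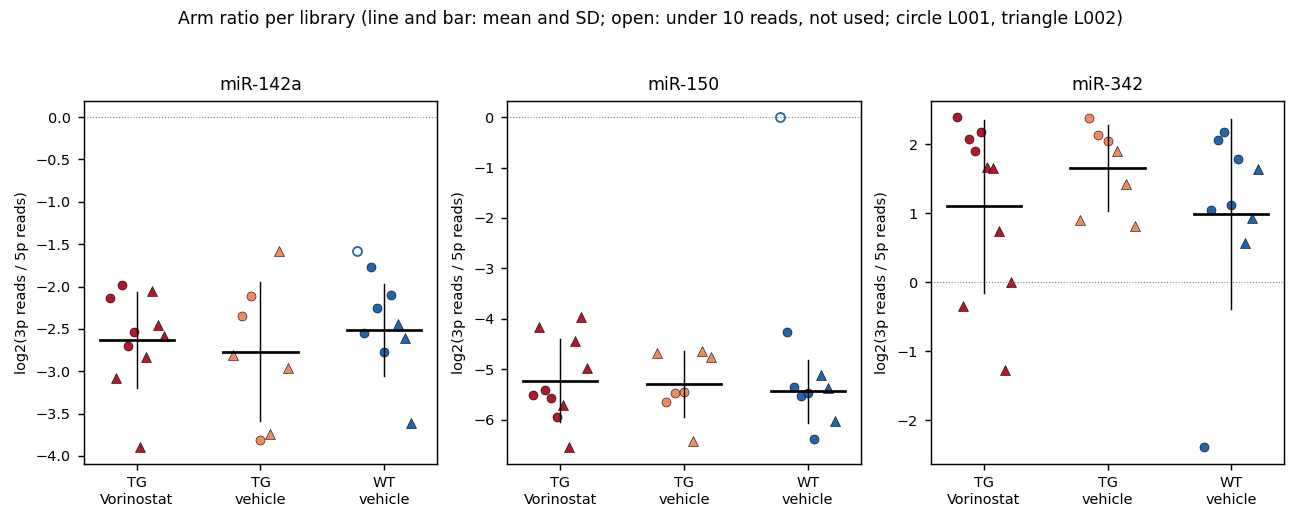
Log2 ratio of 3p to 5p reads per library for the 3 hairpins with both arms measured, by group; lines and bars are means and SDs, and open points had under 10 reads and were not used. miR-342 lies mostly above 0, and miR-142a and miR-150 lie below it in all libraries used.

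Some members gave a smaller unadjusted p for the lane than for any group comparison. Between lanes, L002 minus L001, miR-142a-3p differed by -0.69 (SE 0.21, unadjusted p = 0.00316, edgeR adjusted p = 0.188) and miR-342-5p by 0.55 (SE 0.24, unadjusted p = 0.0324, adjusted p = 0.232). After adjustment 0 of the 10 passed, beside 0.165% of all miRNAs. At an unadjusted p under 0.05 there were 2 of the 10, beside 19.8% of all 605 tested, so the members' share is near the background. In the 3 group comparisons there were 0 of the 10 at that level, beside 2.15% to 3.47% of all tested. Median levels of miR-342-5p were 46.4 CPM in L002 and 30.9 CPM in L001. For Vorinostat against vehicle, miR-342-5p gave -0.33 within L001 and 0.55 within L002, whereas miR-342-3p gave -0.38 and -0.29. None of these values was called, and whether the difference depends on the lane was not tested.

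Across libraries, with group means removed, miR-150-5p and miR-342-3p ran together (Spearman rho 0.92 over 26 libraries, 0.87 over the 24 others), and miR-142a-5p ran with both at 0.81, against 0.65 and 0.77 over the 24. Libraries share depth and composition, so these are descriptions only. They are not particular to the 3: 12 of the other 603 tested miRNAs were more like miR-150-5p than miR-342-3p was, and 64 were more like miR-142a-5p than miR-150-5p was. The seed partners miR-146a-5p and miR-146b-5p had a rho of 0.72, with 4 miRNAs more like miR-146a-5p. Arms of 1 hairpin had a low or negative rho: 0.31 for miR-142a, -0.31 for miR-150 and -0.49 for miR-342. Over the 24 libraries it was 0.16, 0.019 and -0.30. The 3p arms of miR-142a and miR-150 held only 1227 and 596 reads in all libraries together, so counting error limits their rho.

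**Figure D5:**
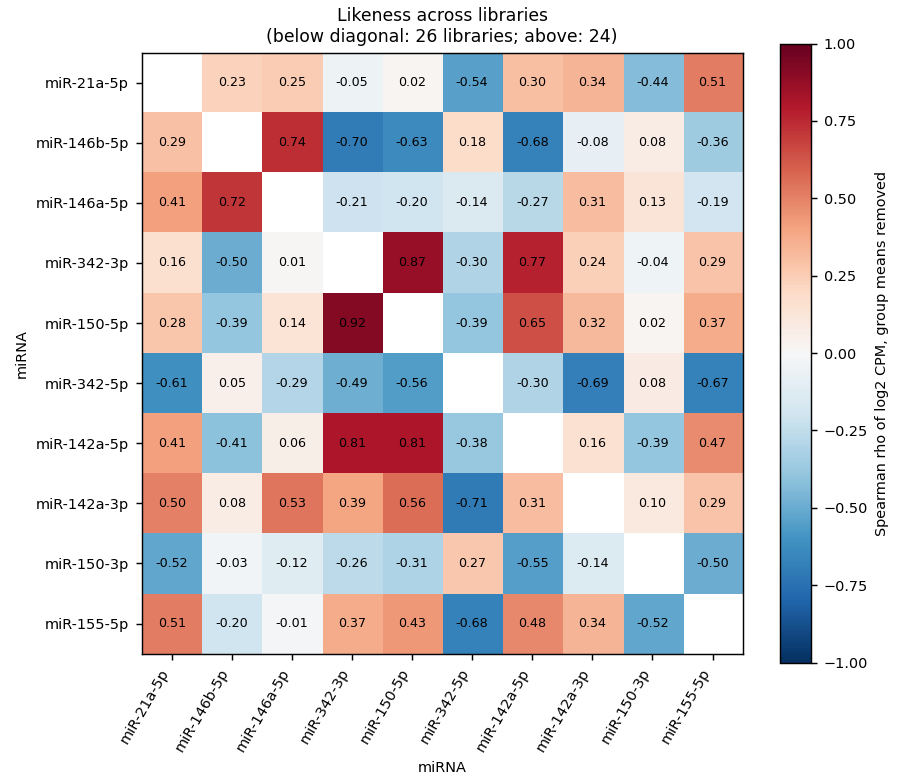
Spearman rho of log2 CPM between the 10 miRNAs with group means removed, over 26 libraries below the diagonal and over 24 libraries above it. miR-150-5p, miR-342-3p and miR-142a-5p form the block from 0.81 to 0.92 below the diagonal, and miR-342-5p is negative with most others.

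The 2 miRNAs most like each member were not other members in any of 20 places. The other arm of the same hairpin was left out of this search. Only 10 of the 605 tested miRNAs are members, so this absence is not a result about them. With group and lane means both removed, 1 place went to a member: miR-146b-5p was second nearest to miR-146a-5p (rho 0.84). The nearest were miR-16-5p (rho 0.96) and miR-23a-3p (0.95) to miR-150-5p, miR-29c-3p and miR-434-3p (0.94 each) to miR-342-3p, and miR-199a-3p and miR-199b-3p (0.93 each) to miR-142a-5p. These last 2 entries had the same mean level, 62.3 CPM, and the same rho, so they may be 1 neighbour counted as 2. The nearest to miR-342-5p were miR-139-3p (0.92) and miR-485-3p (0.87). Those of the abundant members were miR-185-5p (0.85) and miR-30a-5p (0.83) for miR-146a-5p, miR-30d-5p (0.89) and miR-1195 (0.86, at a mean of only 0.795 CPM) for miR-146b-5p, and miR-181a-1-3p (0.86) and miR-9-5p (0.85) for miR-21a-5p. The 3 rarest had looser neighbours: miR-140-5p and miR-30e-5p (0.71 each) for miR-142a-3p, miR-186-5p (0.71) and miR-93-3p (0.65) for miR-155-5p, and miR-222-3p (0.64) and miR-1247-5p (0.59) for miR-150-3p. In the authors' deposited table of co-expression modules, 5 of the 10 were in the turquoise module, which holds 404 of 674 miRNAs (59.9%), so the members' share is not above the background. Their memberships were 0.99 for miR-150-5p, 0.98 for miR-342-3p, 0.96 for miR-142a-5p, 0.73 for miR-21a-5p and 0.45 for miR-155-5p in the authors' deposited table.

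Of 19 other miRNAs of immune and inflammatory signalling, 7 were abundant enough to test, and 0 passed in any of the 3 comparisons. Their median difference was 0.19 for transgenic against wild type, -0.041 for Vorinostat against vehicle and 0.15 for Vorinostat-treated transgenic against wild type. Over all miRNAs it was 0.025, -0.0098 and 0.014. The values of this list without wild type replicate 1 were not examined. The most abundant was miR-9-5p, a miRNA of neural cells, also counted among the neuronal markers above, that is known to target Nfkb1, at 129894 ± 23370 CPM with Vorinostat, 133084 ± 6156 CPM in transgenic vehicle and 116477 ± 29335 CPM in wild type (SD, n = 10, 7 and 9). miR-125b-5p, known to repress Tnf, had 16155 ± 4722, 20282 ± 5407 and 17821 ± 7357 CPM in these groups, and its difference for Vorinostat against vehicle was -0.33 (SE 0.26, adjusted p = 0.836). The other strands of the members were rare, with 608 reads of miR-146b-3p, 13 of miR-21a-3p, 5 of miR-146a-3p and 0 of miR-155-3p in all libraries together.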

How the data were processed

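Small RNA of CA1 was sequenced in 26 libraries (TruSeq Small RNA, HiSeq2000, single reads), per the labels' protocols. FastQC 0.11.5 and mm10 appear in the submitters' processing notes, which leave aligner, annotation and counter unnamed. Raw counts for mature miRNAs were deposited by the authors (1915 entries, 526 without reads), normalized values on a log2 scale for 674 miRNAs by an unstated method, and, per the file headers, a module membership score with p-values, which were not used.

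Counts were tested with edgeR 4.0.16 (R 4.3.3; TMM factors, filterByExpr with a minimum count of 10 and total of 15, one model of 3 groups, quasi-likelihood test, Benjamini-Hochberg over 605 miRNAs, threshold 0.05). The authors' values were tested with limma 3.58.1. Alternatives used DESeq2 1.42.0, limma voom, other scaling and filters, lanes, pairs and left-out libraries. Arm ratios were log2 of 3p over 5p reads with 0.5 added, with at least 10 reads, and took an exact permutation test on the absolute difference of means. Likeness is Spearman rho on log2 CPM with a prior count of 2. Pairs: same-numbered Vorinostat and transgenic vehicle libraries correlated in 7 of 7 pairs (0.27 to 0.60), 6 of them with both libraries in the same lane. For wild type, 4 of 6 pairs with transgenic vehicle were over 0.1, and the 6 ranged from -0.45 to 0.46. With Vorinostat, 6 of 9 pairs were over 0.1, and the 9 ranged from -0.51 to 0.58. Differently numbered libraries were not compared. All 10 members were named in each comparison, with the 2 most abundant of the list and the 2 nearest miRNAs per member; miR-21c and the arms were named after their values were seen. Members and lists were chosen with earlier results of these data known. Scripts were tested on simulated data. The 95% intervals of differences come from the SEs of the fits and cover the spread between libraries; floors (3 reads) cover counting error only.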

Additional observations from a re-analysis of the deposited data

Results flagged for a closer look

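Of 39 groups of values examined, 4 had a library far from the others, and chance alone flags about 1 in 20. All 4 were wild type replicate 1, the library with 585188 counts. It was lowest for miR-142a-5p at 2.08 CPM, where it had 1 read and the next wild type library had 17.1 CPM. It was highest for miR-150-3p at 6.24 CPM (3 reads, next library 3.00 CPM) and for miR-342-5p at 135 CPM (65 reads, next library 63.1 CPM). Its log2 ratio of 3p to 5p reads of miR-342 was -2.39, against 0.57 in the next library.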

How the results depend on the processing

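Calls from the deposited counts were 0 in all 3 comparisons under RLE factors, library totals, no filter, at least 10 CPM, DESeq2, limma voom, lane as a covariate, within each lane, the replicate block over 26 libraries, without both libraries that stood apart and without each library in turn (lowest 0, highest 0). They were 5 for Vorinostat against vehicle with the replicate block of 7 pairs, and 0 without pair 8, an alternative chosen after seeing the data. On the authors' values they were 366, 360 and 6 in the 3 comparisons. Without both libraries that stood apart, also chosen after seeing the data, they were 346 for transgenic against wild type and 388 for Vorinostat against vehicle. The cause was not tested. Lane values of the authors' table and of likeness were added in the same way.

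No member had a called direction on the counts, and the following values changed sign. For Vorinostat against vehicle, miR-21a-5p was -0.046 with RLE factors, -0.046 with DESeq2, -0.11 with library totals, -0.011 with no filter, -0.022 with voom and -0.025 within lane L001. It was -0.042 with the replicate block of 7 pairs, -0.0023 with 6 pairs and -0.32 on the authors' values. miR-146a-5p was -0.065 with library totals, -0.13 within L002 and -0.17 on the authors' values. miR-142a-3p was 0.094 within L001 and 0.057 with 6 pairs, and miR-342-5p was -0.33 within L001. On the authors' values miR-150-3p was 0.10 and miR-155-5p -0.079. For transgenic against wild type, miR-146b-5p was -0.00064 with at least 10 CPM, -0.0018 with the lane covariate, -0.091 within L001, -0.054 without both libraries and -0.043 on the authors' values. miR-150-3p was -0.014 with the replicate block, -0.061 within L001 and -0.27 on the authors' values. miR-155-5p was 0.56 within L001 and 0.25 on the authors' values. miR-146a-5p was -0.020 within L001 and -0.050 without both libraries. miR-142a-3p was 0.051 with the lane covariate and 0.24 within L002. miR-150-5p was -0.27 within L002 and -0.081 without both libraries, and miR-342-3p -0.089 within L002. For Vorinostat-treated transgenic against wild type, miR-150-5p was 0.017 with voom, 0.0019 with the replicate block and 0.23 within L001, where miR-342-3p was 0.032. Within L002 miR-142a-3p was 0.025, miR-150-3p 0.16, miR-155-5p -0.86 and miR-342-5p 0.26.

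Arm ratios of miR-150 within L001 were -0.13 for transgenic against wild type, -0.079 for Vorinostat against vehicle and -0.21 for Vorinostat-treated transgenic against wild type. Those of miR-142a within L002 were 0.11, -0.041 and 0.072 in these comparisons, and that of miR-342 was -0.64 in the last. Pooled counts gave -0.19 for miR-142a and -0.052 for miR-150 for Vorinostat against vehicle, and -0.15 for miR-342 for Vorinostat-treated transgenic against wild type. Without both libraries, miR-150 was -0.066 for Vorinostat against vehicle and miR-342 -0.052 for Vorinostat-treated transgenic against wild type.

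Without each library in turn, transgenic against wild type ran from -0.24 to 0.065 for miR-142a-3p, -0.052 to 0.20 for miR-146a-5p, -0.056 to 0.14 for miR-146b-5p. It also ran from -0.070 to 0.12 for miR-150-3p, -0.083 to 0.22 for miR-150-5p, -0.45 to 0.027 for miR-155-5p. Without each library in turn, Vorinostat against vehicle ran from -0.033 to 0.34 for the arm ratio of miR-142a, -0.11 to 0.22 for the arm ratio of miR-150, -0.22 to 0.084 for miR-142a-3p. It also ran from -0.026 to 0.13 for miR-146a-5p, -0.090 to 0.080 for miR-21a-5p. Without each library in turn, Vorinostat-treated transgenic against wild type ran from -0.27 to 0.028 for the arm ratio of miR-142a, -0.32 to 0.37 for the arm ratio of miR-342, -0.036 to 0.15 for miR-142a-5p. It also ran from -0.26 to 0.0028 for miR-150-5p, -0.32 to 0.029 for miR-342-5p. Depth limits the rare members most: miR-155-5p had 280 reads, miR-150-3p 596 and miR-142a-3p 1227 in all libraries together.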
